A study of Saccharomyces cerevisiae and Saccharomyces kudriavzevii and Saccharomyces uvarum with 18 samples.

Results

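Expression in wine fermentations of S. uvarum CECT 12600 was compared with that of S. kudriavzevii IFO 1802, at 12°C and at 28°C. The comparison used 12 of the 18 two-colour arrays of the series, chosen by the strain named in each array's title, with 3 arrays for each strain and temperature lettered A, B and C. Each array carried RNA of 1 strain in the Cy3 channel and RNA of the mesophilic wine strain S. cerevisiae Lalvin T73 in the Cy5 channel. All cells came from fermentations of Tempranillo must and were collected as they entered stationary phase. The other 6 arrays carried S. cerevisiae Fermol cryophile and served only to estimate the spread. Each species was represented by 1 strain, so that species and strain cannot be told apart. The titles named CECT 12600 on all S. uvarum arrays, whereas the strain field gave another collection number for replicates B and C, and the titles were followed. All values below are log2 of strain over T73, in which 1 unit is a 2-fold change, and a difference between the strains is S. uvarum minus S. kudriavzevii, so that T73 and a dye bias of the gene cancel where the same control RNA was used.

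S. uvarum and S. kudriavzevii are cold-tolerant relatives of S. cerevisiae that grow well at temperatures at which most wine strains slow down. In a must fermentation, yeasts convert hexoses to ethanol, while acetaldehyde is partly oxidised to acetate and activated to acetyl-CoA, the precursor of fatty acids, sterols and acetate esters. The citrate cycle works mainly as a supply of carbon skeletons under these conditions, and amino acids taken up from the must feed the Ehrlich pathway of higher alcohols. The ends of Saccharomyces chromosomes carry repeated gene families such as PAU, COS and YRF1, whose number and sequence vary widely between strains and species.

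The probes were PCR products of S. cerevisiae ORFs, so that both strains were measured by heterologous hybridisation. The study had checked probe binding beforehand with DNA in place of RNA. By its account all but a small share of the genes bound, in S. uvarum as in S. kudriavzevii. The aroma genes that it listed as failing are named below. The values of that check for single genes were not used here. A ratio depends on the amount of RNA and on how well the transcript of that species binds the S. cerevisiae probe, and these cannot be told apart on the arrays. The probes were double-stranded, so that overlapping genes and antisense transcripts cannot be told apart either. The standard deviation across genes of the 12 arrays ranged from 0.88 to 1.99, and the arrays held between 5675 and 6166 values. Replicates of a group correlated with a median Pearson r across genes of 0.34 (range 0.11 to 0.61, 12 pairs), and arrays of the other strain at the same temperature with a median of 0.30 (range -0.02 to 0.73, 18 pairs). For 5 of the 12 arrays the best partner was an array of the same group. For 4 arrays the mean correlation with the other strain at the same temperature was above that with their own group. These were S. uvarum replicate A at 12°C (0.35 with its own group, 0.57 with the other strain), S. kudriavzevii replicate C at 12°C (0.35 and 0.41), S. uvarum replicate A at 28°C (0.12 and 0.30) and S. kudriavzevii replicate C at 28°C (0.18 and 0.29). The number of calls and the values at chromosome ends are given below with and without these 4 arrays.

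The comparison asked which genes separate the 2 cryotolerant strains in the same direction at both temperatures. In the limma fit, 9 of 6109 genes (0.147%) were called, which means an adjusted p below 0.05 for the mean of the 12°C and 28°C differences, and each of them had the same sign at both temperatures. The 3 genes higher in S. uvarum (0.0491%) were THI4, SDH2 and GPI11. The 6 genes lower in S. uvarum (0.0982%) were YER189W, YEL076C, YFL068W, MOR1, YER010C and YLR428C, of which 3 lie among the outermost 3 genes of a chromosome arm. Each of the 9 was also at least 2-fold apart by group medians at both temperatures. Before adjustment, p was below 0.05 for 852 genes (13.9%), 457 higher (7.48%) and 395 lower (6.47%) in S. uvarum.

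In the same fit, the 12°C difference gave 0 calls of 6132 genes (449 or 7.32% with an unadjusted p below 0.05). The 28°C difference gave 9 of 6147 (0.146%), 5 higher (0.0813%) and 4 lower (0.0651%) in S. uvarum. SDH2, YER010C and YLR428C were among the 9 genes called at 28°C and in the averaged comparison. The median standard error was 0.71 at 12°C, 0.70 at 28°C and 0.49 for the averaged difference. By the study's rule of a 2-fold change in the median, 654 genes (10.7%) were apart in the same direction at both temperatures, 249 higher (4.08%) and 405 lower (6.63%) in S. uvarum, and 108 (1.77%) in opposite directions. The excess of lower genes was not present without S. uvarum replicate C at 12°C (285 higher, 276 lower), and the same held for replicate B of S. uvarum at 28°C (232 and 214 when it was left out). Of 5139 genes with all 12 values, 71 (1.38%) did not overlap between the strains at either temperature, 41 higher (0.798%) and 30 lower (0.584%), and 21 (0.409%) were separated in opposite directions. Across genes, the 12°C and 28°C differences correlated with r = 0.28 and rho = 0.32 (6109 genes, which share arrays and are not independent replicates).

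The number of calls depended on single arrays. Leaving out S. kudriavzevii replicate A at 12°C left 0 of the 9 genes called. Leaving out S. kudriavzevii replicate B or S. uvarum replicate C at 12°C, or S. uvarum replicate C at 28°C, left 1 of them. S. uvarum replicate B at 12°C left 4, and S. kudriavzevii replicate A or B or S. uvarum replicate B at 28°C left 5. Without S. kudriavzevii replicate C at 28°C, 6 of the 9 were called. The count grew to 90, 53 and 44 genes without S. uvarum replicate A at 28°C, S. uvarum replicate A at 12°C and S. kudriavzevii replicate C at 12°C, each time with all 9 among them. Without the 4 arrays closer to the other strain it was 1048 of 5308 genes, 517 higher and 531 lower, and without the 2 of them at 28°C it was 183. Because these arrays were picked for their likeness to the other strain, leaving them out widens the difference by construction, and nothing is read from these counts. Fitted on the 12 arrays of the 2 strains alone, 0 genes were called and 623 had an unadjusted p below 0.05.

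**Figure D1:**
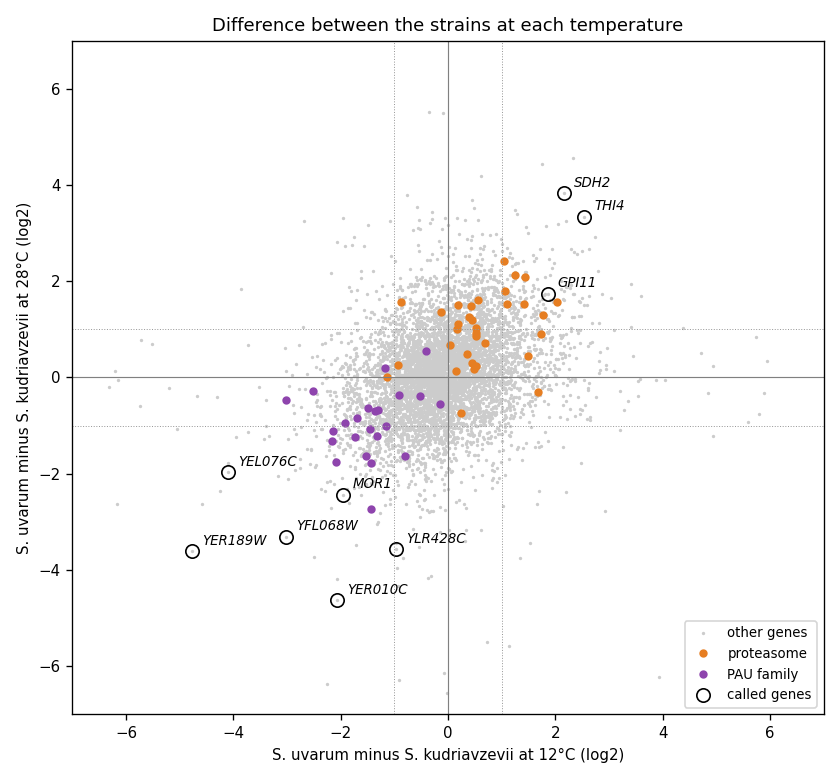
Difference between S. uvarum and S. kudriavzevii (log2) at 12°C (horizontal axis) and at 28°C (vertical axis), 1 point per gene, with dotted lines at a 2-fold difference and 8 genes beyond 7 on an axis not drawn. The 9 called genes are circled and named, and lie at the lower left and upper right. The PAU genes lie mostly at the lower left and the proteasome genes mostly at the upper right.

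THI4, which makes the thiazole precursor of thiamine, stood at 1.53, 2.15 and 2.27 in S. uvarum at 12°C and at 1.78, 2.69 and 3.85 at 28°C. In S. kudriavzevii it stood at -1.65, -1.30 and 1.29 at 12°C and at -0.44, -0.85 and -0.39 at 28°C. Each S. uvarum array lay above T73 and above each S. kudriavzevii array of the same temperature. The averaged difference was 2.94 (SE 0.50, adjusted p 0.0224). THI4 was called in 4 of 12 fits without 1 array, where its difference ranged from 2.66 to 3.40 and its highest adjusted p was 0.0874, without S. uvarum replicate C at 12°C. Of 20 genes of thiamine synthesis and uptake, a list chosen after their values were seen, it was the 1 called, and 6 were higher and 4 lower at both temperatures with a median of 0.05.

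SDH2, the iron-sulphur subunit of succinate dehydrogenase, stood at 0.12, 2.33 and 1.50 in S. uvarum at 12°C and at -1.42, -0.03 and -1.09 in S. kudriavzevii. S. uvarum at 28°C gave 2.20, 3.14 and 4.76, and S. kudriavzevii gave -0.34, -1.11 and 0.06. The strains did not overlap at either temperature, and replicate A of S. uvarum at 12°C lay just above the highest S. kudriavzevii array. The averaged difference of SDH2 was 2.99 (SE 0.52, adjusted p 0.0224). It was called in 4 of 12 fits without 1 array, with a highest adjusted p of 0.0874, without S. uvarum replicate C at 12°C.

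GPI11, which acts in the synthesis of the glycosylphosphatidylinositol anchors that hold proteins at the cell surface, stood at 0.83, 2.56 and 1.45 in S. uvarum at 12°C and at 1.60, 1.79 and 1.41 at 28°C. In S. kudriavzevii it stood at -0.22, -0.60 and 0.08 at 12°C and at 0.13, -0.06 and -0.50 at 28°C. The S. kudriavzevii arrays were all close to T73, and the S. uvarum arrays all lay above them. The averaged difference of GPI11 was 1.80 (SE 0.33, adjusted p 0.034), nearly equal at 12°C (1.86) and at 28°C (1.74). It was called in 3 of 12 fits without 1 array, with a highest adjusted p of 0.0985, without S. kudriavzevii replicate B at 12°C.

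The 9 genes next in order of p on this side did not pass the adjustment. LSC2, the beta subunit of succinyl-CoA ligase, differed by 2.62 on average with an adjusted p of 0.0576, and its arrays did not overlap at either temperature. The same absence of overlap was seen for GIS2, an activator of translation (1.91, adjusted p 0.0599), GND2, the minor 6-phosphogluconate dehydrogenase (1.76, adjusted p 0.0645), RPD3, a histone deacetylase (1.94, adjusted p 0.0645), and NEM1, a phosphatase that regulates lipid synthesis (1.75, adjusted p 0.0795). GLO1, which detoxifies methylglyoxal, showed an averaged difference of 2.83 and the vacuolar ribonuclease RNY1 one of 2.07, with overlap at 28°C. YGK1 showed the highest value of the 12 genes with the smallest p, 3.45, but its S. kudriavzevii arrays at 28°C spread from -1.70 to 2.08. MSC7 was 2.94 higher in S. uvarum at 28°C (adjusted p 0.0423) and 0.44 at 12°C (adjusted p 0.843).

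On the other side, 3 of the 6 called ORFs lie at chromosome ends. YER189W, on the right arm of chromosome V next to the outermost gene YRF1-2, stood at -1.98, -4.86 and -1.85 in S. uvarum at 12°C and at 2.04 and 1.72 in S. kudriavzevii, where replicate C had no value. In the 28°C fermentations S. uvarum stood at -4.86, -2.73 and -2.87 and S. kudriavzevii at -0.36, -0.27 and 1.00. The strains were far apart at both temperatures, with S. uvarum below T73 on all 6 arrays. The averaged difference of YER189W was -4.19 (SE 0.58, adjusted p 0.0127). It was called in each of the 10 fits without 1 array that could be made, with a highest adjusted p of 0.038. It could not be fitted without S. kudriavzevii replicate A or B at 12°C, which leaves 1 value.

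YEL076C, the third gene from the left end of chromosome V, stood at -0.63, -0.57 and -1.17 in S. uvarum at 12°C and at 2.59, 5.14 and 2.17 in S. kudriavzevii. The 28°C values were -0.65, -2.12 and -1.44 in S. uvarum and 0.85, 0.76 and 0.11 in S. kudriavzevii. S. uvarum lay below T73 and S. kudriavzevii above it on every array. The averaged difference of YEL076C was -3.03 (SE 0.48, adjusted p 0.0147), called in 9 of 12 fits without 1 array, with a highest adjusted p of 0.0695 without S. uvarum replicate C at 12°C.

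YFL068W, the outermost gene of the left arm of chromosome VI, stood at -1.92, -1.39 and -3.58 in S. uvarum at 12°C and at 1.63, 1.55 and -1.02 in S. kudriavzevii. S. uvarum at 28°C gave -2.95, -3.23 and -3.41, and S. kudriavzevii gave 0.28, -0.26 and 0.32. The strains did not overlap, and at 12°C replicate C of S. kudriavzevii was nearest to S. uvarum. The averaged difference of YFL068W was -3.16 (SE 0.50, adjusted p 0.0147), called in 8 of 12 fits without 1 array, with a highest adjusted p of 0.0713 without S. kudriavzevii replicate A at 12°C. The annotation was used for names and gene order alone, so that no role of these 3 ORFs is given here.

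MOR1 stood at -0.71, -0.78 and -1.10 in S. uvarum at 12°C and at 0.92, 1.87 and 0.52 in S. kudriavzevii. In the 28°C fermentations S. uvarum stood at -3.25, -1.86 and -2.59 and S. kudriavzevii at -0.59, 0.04 and 0.18. The groups were narrow and did not overlap at either temperature. The differences of MOR1 at the 2 temperatures lay close to each other, -1.97 at 12°C and -2.44 at 28°C (averaged SE 0.35, adjusted p 0.0147). It was called in 8 of 12 fits without 1 array, with a highest adjusted p of 0.0713 without S. kudriavzevii replicate A at 12°C.

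YER010C and YLR428C lay further in or had no place in the annotation. YER010C stood at -0.75, -1.83 and -1.99 in S. uvarum at 12°C and at 1.62, 1.41 and -1.38 in S. kudriavzevii, where replicate C fell within the S. uvarum range. The 28°C values were -1.76, 0.03 and -2.48 in S. uvarum and 1.69, 3.71 and 4.28 in S. kudriavzevii, without overlap. Its averaged difference was -3.35 (SE 0.61, adjusted p 0.034), called in 5 of 12 fits without 1 array, with a highest adjusted p of 0.135 without S. uvarum replicate C at 12°C.

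YLR428C, which matched no gene of the annotation, stood at 0.51, 0.88 and 0.00 in S. uvarum at 12°C and at 1.56, 2.04 and 0.71 in S. kudriavzevii. S. uvarum at 28°C gave -2.10, -2.25 and -1.62, and S. kudriavzevii gave 2.84, 0.51 and 1.39. The strains overlapped at 12°C and were separated at 28°C. Its averaged difference was -2.27 (SE 0.42, adjusted p 0.0381), made up of -0.97 at 12°C and -3.57 at 28°C. It was called in 4 of 12 fits without 1 array, with a highest adjusted p of 0.144 without S. uvarum replicate C at 12°C.

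**Figure D2:**
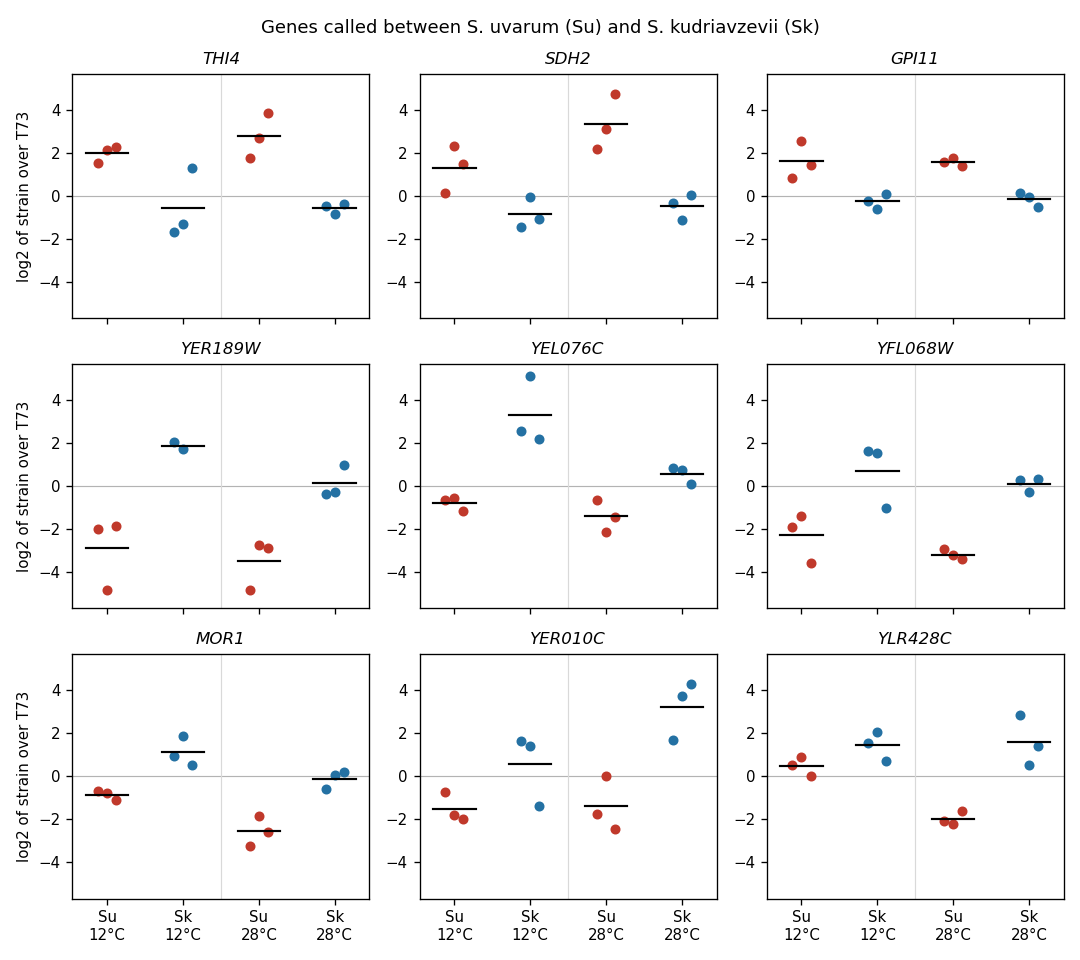
Log2 of strain over T73 on each array (points) with the group mean (bar) for the 9 called genes, S. uvarum in red and S. kudriavzevii in blue, 3 arrays per group except YER189W in S. kudriavzevii at 12°C with 2. For THI4, SDH2 and GPI11 the red points lie above the blue ones at both temperatures. For the other 6 genes they lie below, with overlap at 12°C for YER010C and YLR428C.

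The ORFs next in order of p that were lower in S. uvarum did not pass the adjustment. Of these, YHL049C, the second gene from the left end of chromosome VIII, differed by -2.32 (adjusted p 0.0599). YPR202W, the third from the right end of chromosome XVI, differed by -3.11 (adjusted p 0.0645). Both were without overlap between the strains. For YPR202W at 12°C, replicate C of S. uvarum (-1.43) lay just below replicate C of S. kudriavzevii (-1.40). EMA17 gave -1.82 (adjusted p 0.0599) and MPO1, which acts in the breakdown of phytosphingosine, -2.03 (adjusted p 0.0645), each with 1 value missing in S. kudriavzevii at 12°C. YBL005W-A and YMR051C were called at 28°C alone (-3.76 and -3.43, adjusted p 0.0423 and 0.0493) and stood at -0.85 and -0.98 at 12°C (adjusted p 0.755 and 0.715).

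Position along the chromosome was examined after these ORFs had been seen. The genes tested were ranked from each of the 32 chromosome ends by the order of the R64 annotation of S. cerevisiae. Among the outermost 3 genes of each arm, 61 of 96 were lower in S. uvarum at both temperatures and 7 were higher, with a median difference of -0.63. At least 2-fold lower at both temperatures were 28 of them (29.2%), on 21 of 32 arms, against 2 (2.08%) at least 2-fold higher. Among the 5543 genes further in, 324 (5.85%) were at least 2-fold lower and 239 (4.31%) higher, with a median difference of 0.01. The median of the outermost 96 genes ranged from -0.77 to -0.55 when 1 array was left out. It was -0.72 over the 89 that could be fitted without the 4 arrays closer to the other strain. Those arrays were picked for their likeness to the other strain, so nothing is read from that value. The count of 28 fell to 18 without S. uvarum replicate C at 12°C and with each array scaled. Because neighbouring ends share repeated sequence, these genes are not independent, and the excess is given as a description.

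Against T73, the median over these 96 genes at 12°C was -0.33 for S. uvarum and 0.36 for S. kudriavzevii, and at 28°C it was -0.66 and 0.02. These pooled medians differed by rank. For the outermost gene of an arm both strains lay below T73, with S. uvarum at -0.52 and S. kudriavzevii at -0.62 at 12°C, and at -0.85 and -0.25 at 28°C. For rank 2 the 12°C medians were -0.18 and 0.81, and for rank 3 they were -0.32 and 0.62. By rank, the medians of the averaged difference were -0.61, -0.85 and -0.55 for ranks 1, 2 and 3 from the end, 32 genes each. They were -0.19 for ranks 4 to 5 (64 genes) and 0.01 for ranks 6 to 10 (160 genes). Without the genes named PAU, YRF1 or COS, 32 of the remaining 66 outermost genes were lower at both temperatures and 7 higher, with a median of -0.32. ORFs without a symbol were kept, whether or not they belong to a repeated family. They made up 41 of the 66, with 22 lower and 3 higher at both temperatures and a median of -0.56. At least 2-fold lower at both temperatures were 15 of the 66, and 14 of these were ORFs without a symbol. Hybridisation to the S. cerevisiae probes and expression cannot be told apart in these values.

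**Figure D3:**
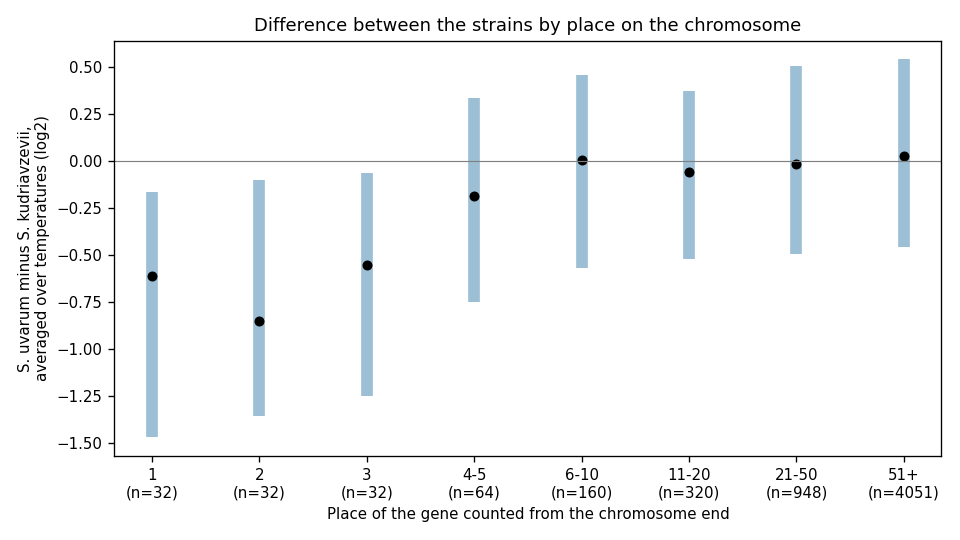
Averaged difference between S. uvarum and S. kudriavzevii (log2, vertical axis) by the place of a gene counted from its chromosome end (horizontal axis), as the median (point) and the interquartile range (bar), with the number of genes below each place. The first 3 places lie below 0 over their whole interquartile range, and the medians from place 6 inward lie within 0.06 of 0.

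ORFs without a gene symbol were lower in S. uvarum more often than higher. Of 5117 genes with a symbol, 226 (4.42%) were at least 2-fold higher and 293 (5.73%) lower at both temperatures. Of 522 annotated genes without a symbol, 15 (2.87%) were higher and 59 (11.3%) lower. Of 470 ORFs that matched no annotated gene, 8 (1.7%) were higher and 53 (11.3%) lower.

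The repeated families of the chromosome ends were listed after their values were seen. Many of their members are similar in sequence, so that a probe may report several copies. The seripauperins, encoded by the PAU genes, are small cell wall mannoproteins expressed mainly in anaerobic fermentation. Of 23 PAU genes, 21 were lower in S. uvarum at both temperatures and 0 higher, against 31.1% and 29% of all genes tested, and the median difference was -1.27, from -1.51 to -1.05 without 1 array. None was called, whereas 16 had an unadjusted p below 0.05, all of them lower, and 12 were at least 2-fold lower at both temperatures. The count of 12 fell to 7 without S. uvarum replicate B at 28°C.

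PAU13 stood at 0.89, -0.26 and -0.41 in S. uvarum at 12°C and at 2.64, 3.06 and 0.76 in S. kudriavzevii. In the 28°C fermentations S. uvarum stood at -0.18, -1.0 and -0.94 and S. kudriavzevii at 1.05, 0.97 and 1.15. The strains overlapped by a single array at 12°C and were separate at 28°C. The averaged difference of PAU13 was -1.92 (SE 0.41, adjusted p 0.0645), and PAU20 gave -1.74 (SE 0.47, adjusted p 0.158) without overlap at either temperature. The 2 PAU genes without a common sign were PAU7 (-0.41 at 12°C, 0.55 at 28°C) and PAU17 (-1.17 and 0.20).

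The YRF1 genes encode the helicase of the Y prime elements next to the telomeres. Each of the 7 YRF1 genes was lower in S. uvarum at both temperatures, with a median of -1.29, from -1.59 to -0.92 without 1 array. The values ran from -1.85 for YRF1-7 (adjusted p 0.264) and -1.52 for YRF1-3 (adjusted p 0.195) to -0.30 for YRF1-5. YRF1-1 and YRF1-2 were also close to no difference, at -0.37 and -0.50. Of the 7 genes, 0 were called. At least 2-fold lower at both temperatures were 4 of them, or 1 when replicate B of S. uvarum at 12°C was left out. An unadjusted p below 0.05 was found for 4, and for 1 without S. kudriavzevii replicate C at 28°C. With each array scaled, 6 of the 7 were lower at both temperatures and 0 were at least 2-fold lower. Of 12 COS genes, another family of the chromosome ends, 11 were lower at both temperatures with a median of -0.75, and 0 were called. Against T73 at 12°C the COS medians were -2.51 in S. uvarum and -2.16 in S. kudriavzevii.

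For the remaining gene lists, SDH2 was the only called member, so that they are described by their counts and medians beside those of all genes tested (1771 or 29% higher and 1897 or 31.1% lower at both temperatures, median -0.02). Members with an unadjusted p below 0.05 are counted against 7.48% higher and 6.47% lower over all genes. The lists were chosen with earlier results of these data known.

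The citrate cycle, the glyoxylate cycle and pyruvate dehydrogenase gave 28 genes, of which 16 were higher in S. uvarum at both temperatures and 5 lower, with a median of 0.57 (0.32 to 0.76 without 1 array). An unadjusted p below 0.05 was found for 10 higher genes and for 1 lower gene. The 10 higher genes became 5 without S. uvarum replicate C at 28°C. With each array scaled the median was 0.21, and 6 higher genes had an unadjusted p below 0.05. Beside SDH2 and LSC2, which carry neighbouring steps of the cycle, high values were those of LPD1, the dihydrolipoamide dehydrogenase shared by several complexes (1.73, adjusted p 0.217), and the malate synthase MLS1 (1.45, adjusted p 0.195). The pyruvate dehydrogenase subunits PDA1 (1.63) and PDB1 (1.31) were of the same sign at both temperatures. PDA1 was named by the study as a gene of S. kudriavzevii that did not hybridise to these arrays, so that its difference cannot be read as expression. Without PDA1, 15 of 27 genes were higher at both temperatures, with a median of 0.53.

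Not all steps followed this sign. The partners of SDH2 in succinate dehydrogenase stood at -0.50 (SDH1), 0.42 (SDH3) and -0.67 (SDH4), with adjusted p between 0.551 and 0.821. The other subunit of succinyl-CoA ligase, LSC1, stood at 0.53 (adjusted p 0.648). The mitochondrial malate dehydrogenase MDH1 stood at -1.56 (SE 0.44, adjusted p 0.169), mostly through 28°C (-2.75), and the cytosolic isocitrate dehydrogenase IDP2 at -1.58 (SE 0.80, adjusted p 0.396).

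**Figure D4:**
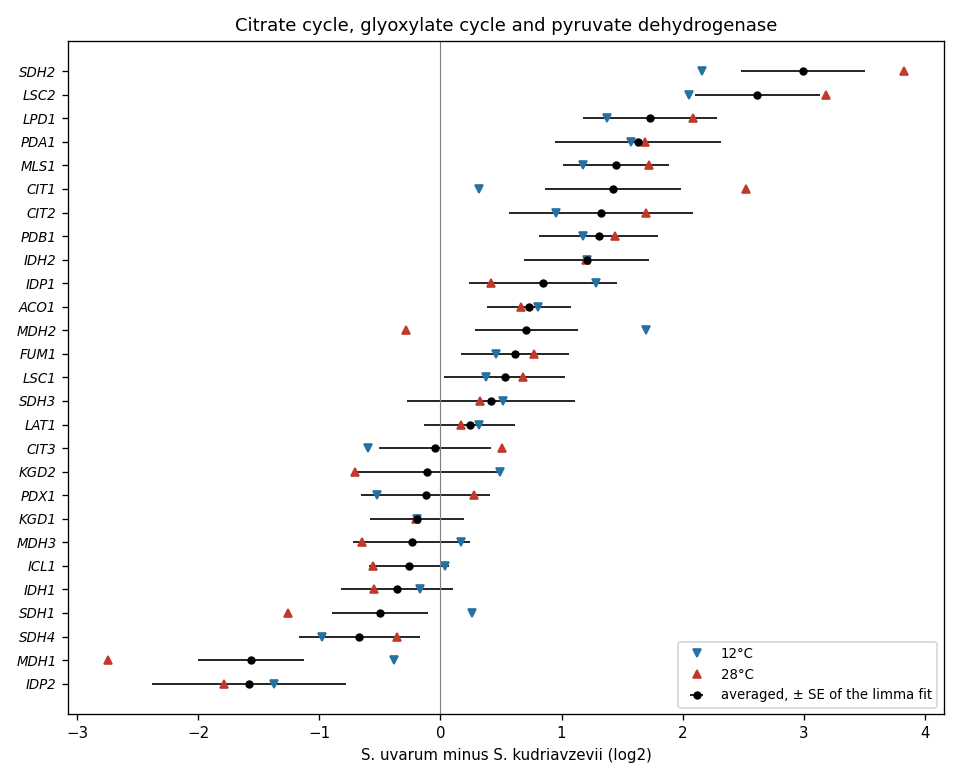
Difference between S. uvarum and S. kudriavzevii (log2, horizontal axis) for 27 of the 28 genes of the citrate cycle, the glyoxylate cycle and pyruvate dehydrogenase, averaged over temperatures (black points with the SE of the limma fit) and at 12°C and 28°C (triangles). SDH2 and LSC2 lie at the top at about 3.0 and 2.6, and MDH1 and IDP2 at the bottom near -1.6.

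The aldehyde dehydrogenases and the enzymes of acetyl-CoA synthesis gave 8 genes. Of these, 5 were higher in S. uvarum at both temperatures and 0 lower, with a median of 1.29 (0.88 to 1.41 without 1 array), and 5 had an unadjusted p below 0.05, all higher. That number was 2 without S. kudriavzevii replicate A at 12°C. The aldehyde dehydrogenases ALD3 (1.34, adjusted p 0.158), ALD4 (1.42, adjusted p 0.34) and ALD6 (1.45, adjusted p 0.304) had the same sign at both temperatures.

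The acetyl-CoA synthetases ACS2 and ACS1 were apart at 28°C but not at 12°C by value, and ACS2 was called at 28°C. ACS2 stood at -0.07, 0.28 and 0.33 in S. uvarum at 12°C and at 0.38, 1.04 and 0.15 in S. kudriavzevii. The 28°C values were 3.06, 2.75 and 3.97 in S. uvarum and -0.17, -0.95 and 1.26 in S. kudriavzevii. The groups overlapped at 12°C and were far apart at 28°C. The difference of ACS2 was -0.34 at 12°C (adjusted p 0.886) and 3.22 at 28°C (adjusted p 0.0402), and the test of the change between temperatures gave an adjusted p of 0.559. ACS1 stood at -0.11 and 2.58.

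The other 6 lists of aroma synthesis held 55 genes, of which 21 were higher in S. uvarum at both temperatures (38.2%) and 13 lower (23.6%), and 0 were called. An unadjusted p below 0.05 was found for 3 higher (5.45%) and 2 lower (3.64%), against 7.48% and 6.47% of all genes. This set of 6 was formed after the values were seen. All 7 aroma lists together held 63 genes, 26 higher (41.3%) and 13 lower (20.6%) at both temperatures. Of these 63, 8 higher (12.7%) and 2 lower (3.17%) had an unadjusted p below 0.05. BAT1, the mitochondrial transaminase of branched-chain amino acids, stood at -0.56, 2.69 and 0.62 in S. uvarum at 12°C and at -1.34, -1.79 and -0.99 in S. kudriavzevii. S. uvarum at 28°C gave 1.36, 1.08 and 2.79, and S. kudriavzevii gave -0.43, -0.81 and 0.69. The strains did not overlap, and the averaged difference of BAT1 was 2.11 (SE 0.51, adjusted p 0.117).

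ADH6, an NADPH-dependent alcohol dehydrogenase, stood at 2.31 (SE 0.70, adjusted p 0.195) and LEU1, of leucine synthesis, at 2.10 (SE 0.62, adjusted p 0.193), both of the same sign at both temperatures. In aromatic amino acid synthesis, ARO1 stood at -0.99 (adjusted p 0.285) and TYR1 at -1.56 (adjusted p 0.351), and 4 of 12 genes were lower and 4 higher at both temperatures. The 8 genes of ester synthesis and hydrolysis had a median of 0.12 (-0.08 with each array scaled) and 0 with an unadjusted p below 0.05, with ATF1, the main alcohol acetyltransferase, at 0.56 (SE 0.34, adjusted p 0.463). The Ehrlich pathway list (9 genes, median 0.23), the alcohol dehydrogenases (8 genes, 0.46), branched-chain synthesis (10 genes, 0.42) and the glucanases and glucosidases of the cell wall (8 genes, 0.02) held 1, 1, 1 and 0 members with an unadjusted p below 0.05. The medians of the Ehrlich pathway and of the alcohol dehydrogenases were -0.20 and -0.18 when replicate C of S. uvarum at 28°C was left out. ILV5 of the branched-chain list is another gene that the study named as not hybridising in S. kudriavzevii.

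The aryl-alcohol dehydrogenases of the AAD family, a list chosen after its values were seen and made of similar copies, were all 6 higher in S. uvarum at both temperatures, with a median of 1.50 (1.19 to 1.94 without 1 array). AAD14 gave 2.47 (SE 0.64, adjusted p 0.158) and AAD3 2.07 (SE 0.53, adjusted p 0.153). Their sign was the same in each of the 12 fits without 1 array, and 0 were called.

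Most genes of the proteasome and of translation had positive differences by value. Of 33 proteasome genes, 27 were higher in S. uvarum at both temperatures and 0 lower, with a median of 0.72 (0.62 to 0.95 without 1 array). An unadjusted p below 0.05 was found for 10 of them, all higher, and 0 were called. With each array scaled, 25 were higher and 3 lower at both temperatures, and 6 had an unadjusted p below 0.05. The base subunits RPT3 (1.73, adjusted p 0.169) and RPT5 (1.76, adjusted p 0.217) and the lid subunit RPN8 (1.80, adjusted p 0.25) showed the highest values, and RPN4, the transcription factor that controls these genes, stood at 1.68 at 12°C and -0.30 at 28°C.

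RPT3 stood at 0.08, 1.87 and 0.78 in S. uvarum at 12°C and at -0.55, 1.25 and -1.09 in S. kudriavzevii, which overlapped. In the 28°C fermentations S. uvarum stood at 1.21, 1.64 and 3.31 and S. kudriavzevii at -0.57, -0.50 and -0.05, without overlap. Of the 33 proteasome genes, 8 were at least 2-fold higher at both temperatures (24.2%, against 4.08% of all genes). That number was 3 without S. uvarum replicate B at 12°C.

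Of 135 cytosolic ribosomal proteins, 72 were higher and 16 lower at both temperatures, with a median of 0.55, and 43 were higher without S. kudriavzevii replicate A at 12°C. Many of them are near-identical pairs of paralogs. Of 40 translation factors, 21 were higher and 4 lower with a median of 0.45 (0.21 without S. uvarum replicate C at 28°C), among them EFT1, an elongation factor with a near-identical copy (1.83, adjusted p 0.153), and HYP2 (2.17, adjusted p 0.195). Of the ribosome biogenesis factors, 17 of 80 were higher and 26 lower at both temperatures, with a median of -0.06.

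For sterol and fatty acid synthesis the median differences were larger at 28°C, but this was not particular to these lists. The 12°C and 28°C medians were 0.23 and 1.001 for the ribosomal proteins and 0.13 and 0.79 for the translation factors. They were 0.51 and 1.02 for the proteasome, and 0.27 and 1.301 for aldehyde dehydrogenases and acetyl-CoA synthesis. Over all genes tested they were -0.13 and 0.095. Other lists went the opposite way, such as glycerol genes (0.83 and 0.17) and hexose transporters and sensors (0.59 and 0.33). The 27 sterol genes had a median difference of 0.21 at 12°C and 1.45 at 28°C, and 15 were higher and 3 lower at both temperatures. ERG13, the hydroxymethylglutaryl-CoA synthase, stood at -0.01 at 12°C and 3.17 at 28°C (adjusted p 0.0402 at 28°C), and the squalene synthase ERG9 at 0.89 and 2.98 (averaged adjusted p 0.158). The test of the change between temperatures gave an adjusted p of 0.559 for ERG13 and 0.94 for ERG9. The 12 fatty acid genes had medians of 0.15 and 1.25, and 7 were higher and 0 lower at both temperatures.

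Respiration and glycolysis were more mixed. Of 32 genes of the respiratory chain and ATP synthase, 15 were higher and 8 lower at both temperatures, with a median of 0.46 (0.25 without S. uvarum replicate B at 28°C), and ATP7 stood at 1.76 (SE 0.41, adjusted p 0.0888) while ATP15 stood at -1.16 (adjusted p 0.336). Of 21 genes of glycolysis and gluconeogenesis, 5 were higher and 8 lower with a median of -0.24, which was 0.17 without S. kudriavzevii replicate C at 28°C.

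**Figure D5:**
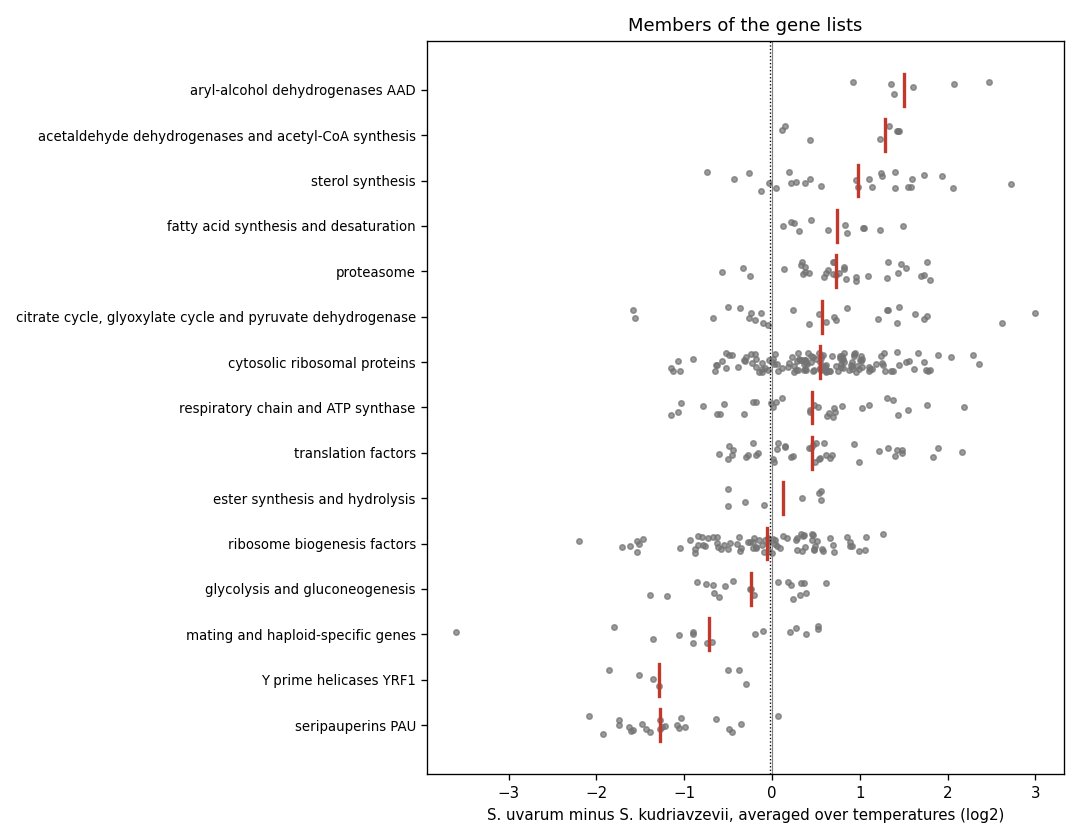
Averaged difference between S. uvarum and S. kudriavzevii (log2, horizontal axis) of the members of 15 gene lists (grey points) with the list's median (red bar), and the median of all genes tested (dotted line, -0.02). The AAD list lies wholly to the right of 0, and the PAU list to the left except for PAU7.

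Whether the difference between the strains changed with temperature was tested as the 28°C difference minus the 12°C difference. Of 6109 genes, limma called 0 (0%), while 296 (4.85%) had an unadjusted p below 0.05, 209 with a higher difference at 28°C (3.42%) and 87 with a lower (1.42%). The smallest p was that of ARR3, an arsenite exporter, which differed by -1.57 at 12°C and by 2.73 at 28°C (change 4.31, adjusted p 0.128). It stood at 1.06 and 1.65 in S. uvarum at 12°C, where replicate B had no value, and at 2.06, 3.38 and 3.35 in S. kudriavzevii. The 28°C values were 3.00, 2.12 and 2.91 in S. uvarum and -0.23, 0.09 and -0.02 in S. kudriavzevii. The order of the strains was thus opposite at the 2 temperatures, without overlap. ARR3 passed the threshold in 1 of 10 fits without 1 array. YPR071W stood at 2.14 at 12°C and -1.44 at 28°C (change -3.58, adjusted p 0.751).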

How the data were processed

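The authors hybridised amplified RNA of each strain (Cy3) and of T73 (Cy5) to slides spotted with PCR-amplified ORFs of S288c, subtracted a global background, normalised each array, removed spots not found and corrected print-tip effects. They deposited 1 log2 ratio per ORF and array. Which dye is the numerator was not stated. The sign was turned to strain over T73, after which 79 of 79 gene directions named in the study's text matched, which settles the sign of the table but does not test the dye record. No dyes were exchanged. Spot brightness was not analysed, so how far each spot exceeded its background is unknown; precision is limited by the number of arrays.

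The table held 6180 lines, of which 2 control spots were left out. Of the 6178 ORFs, 5148 matched a gene symbol in the RefSeq table of assembly R64, 526 an annotated gene without a symbol, 12 an older name and 492 none. Lines of 6 genes were averaged, giving 6172 genes, and 1.48% of the values were missing. Names and gene order alone were taken from that table.

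A limma (version 3.58.1 in R 4.3.3) model with 1 coefficient per strain and temperature was fitted to all 18 arrays, with a common estimate of variance (4.74 prior degrees of freedom). All tests were two-sided. A gene entered with 2 or more values in each group, and p-values were adjusted by Benjamini-Hochberg over all genes tested, with a threshold of 0.05. A gene was reported as differing when it was called in the mean of both temperatures with the same sign at each. The 2-fold rule on medians has no test. Named genes were the 12 genes per direction with the smallest p and the same sign at both temperatures, the called members and the 2 members with the smallest p of each list, and 2 genes per direction of the change with temperature. Other genes named were chosen after their values were seen, as were the YRF1, AAD, PAU, COS and thiamine lists and the chromosome places. The same held for the set of 6 aroma lists. Members and gene lists were chosen with earlier results of these data known.

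The procedure was run on simulated data with independent noise on each array. The arrays here deviated together in part, so nothing about these calls is read from that run. The value of 1 citrate cycle gene is not reported here. The series states 3 biological replicates, while the methods speak of both 2 fermentations and 3 experiments, so that p-values measure the spread between these arrays, which may be partly technical.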

Additional observations from a re-analysis of the deposited data

Results flagged for a closer look

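IAT4 was singled out because the strains were separated in opposite directions at the 2 temperatures. At 12°C it stood at -0.80, 1.77 and -0.51 in S. uvarum and at -1.03, -1.56 and -1.53 in S. kudriavzevii. At 28°C it stood at 0.12, 0.23 and -2.64 in S. uvarum and at 2.52, 2.91 and 2.62 in S. kudriavzevii. The difference between the strains was 1.53 at 12°C and -3.45 at 28°C, a change of -4.97, which did not pass the adjustment over all genes in limma (adjusted p 0.559). The change ranged from -5.47 to -4.04 without 1 array. Such opposite separation was found for 21 of 5139 genes (0.409%).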

How the results depend on the processing

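No called gene changed sign under any alternative. The averaged comparison called 9 genes, against 0 on the 12 arrays alone, 17 after quantile normalisation (8 of the 9 among them), 105 with array weights, and 0 to 90 without 1 array. At 12°C, 0 calls became 1 among genes complete on the 12 arrays, 1 with array weights and 0 to 9 without 1 array (9 without S. kudriavzevii replicate C at 12°C). At 28°C, 9 calls became 0 on the 12 arrays alone, 1 with each array scaled, 109 with array weights and 0 to 56 without 1 array (56 without S. uvarum replicate A at 28°C). The change with temperature gave 0 to 1 calls without 1 array (1 without S. kudriavzevii replicate A at 12°C). The count of 654 genes at least 2-fold apart became 385 with each array scaled, 221 at 3-fold and 346 to 906 without 1 array. Counts over the gene lists leave out the YRF1, AAD, PAU and thiamine lists, and with them THI4. In these counts, 1 call became 0 on the 12 arrays alone, 2 after centring and 2 with values beyond 10 as missing. It became 2 among complete genes, 19 with array weights and 0 to 10 without 1 array. Leaving out S. uvarum replicate A and S. kudriavzevii replicate C at 28°C together, chosen after seeing the data, gave 183 calls on average, 115 at 28°C and 41 over the lists. Leaving out all 4 arrays closer to the other strain gave 1048 calls on average, 185 at 12°C, 329 at 28°C, 161 over the lists and 1216 genes at least 2-fold apart. These arrays were picked by their likeness to the other strain, so that more calls follow from the choice itself. The cause of the other changes was not tested.

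Nothing in the labels says that a replicate letter marks a shared batch. Same-lettered residuals of the strains correlated at 0.23, 0.02 and 0.31 for A, B and C at 12°C and at 0.25, -0.05 and 0.38 at 28°C, so that A and C deviated together and B did not, and of 7 arrays that correlated best with an array of the other strain, 6 did so with the same letter. This falls short of pairing for every letter, and the arrays were treated as unpaired. With the letter as a replicate block, 8 genes were called on average (6 of the 9), 0 at 12°C, 5 at 28°C, 0 for the change with temperature and 0 over the lists. SDH2 (adjusted p 0.065), GPI11 (0.0914) and YLR428C (0.065) were not called in that fit.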

Other observations

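For several further gene lists the median difference between S. uvarum and S. kudriavzevii was below 0, and 0 of their members were called. Among 14 copper genes, 6 were lower and 4 higher in S. uvarum at both temperatures (median -0.24), and an unadjusted p below 0.05 was found for 4 lower genes and 1 higher gene, with 1 lower gene left without S. kudriavzevii replicate A at 12°C. This list held the near-identical metallothionein genes CUP1-1 (-1.33, adjusted p 0.271) and CUP1-2 (-1.24, adjusted p 0.271) and the superoxide dismutase SOD1 (-1.34, adjusted p 0.301) at the lower end and CCS1, the copper chaperone of SOD1, at 1.34 (adjusted p 0.158). Of 17 genes of sulfate assimilation, 7 were lower and 3 higher at both temperatures (median -0.11, and 0.21 without S. kudriavzevii replicate B at 12°C), with the methionine synthase MET6 at 2.06 (adjusted p 0.158). Of 18 amino acid and ammonium permeases, 9 were lower and 3 higher at both temperatures, and 3 were lower without S. uvarum replicate B at 28°C (median -0.37, and -0.15 without that array), with the ammonium permease MEP3 at -1.40 (adjusted p 0.215). The study named MUP3 of this list as not hybridising in its S. bayanus var. uvarum. The 24 heat shock proteins and chaperones had a median of -0.02 (0.20 without S. kudriavzevii replicate C at 28°C), with the mitochondrial chaperonin HSP10 at -2.32 (adjusted p 0.158).

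Hexose transporters and sensors (11 genes, 8 higher and 1 lower at both temperatures, median 0.57), galactose genes (7 genes, median 0.63), glycerol genes (12 genes, median 0.56), trehalose and glycogen genes (17 genes, median 0.33) and mannoproteins of cold and anaerobic cells (7 genes, median 0.53) also held 0 called members. The hexose median was 0.20 without S. uvarum replicate C at 28°C, with 3 genes higher at both temperatures, and 1.13 without S. kudriavzevii replicate C at 28°C. Single arrays also moved the galactose median to 0.06 (replicate B of S. uvarum at 28°C left out), the mannoprotein median to between 0.24 (without S. uvarum replicate C at 12°C) and 1.04 (without S. kudriavzevii replicate C at 28°C) and the trehalose and glycogen median to 0.16 (without S. kudriavzevii replicate B at 28°C). GAL7 of galactose use stood at 3.44 at 12°C and 0.45 at 28°C (averaged adjusted p 0.217). As state markers of the cultures, 8 of 16 mating and haploid-specific genes were lower in S. uvarum at both temperatures and 2 higher (median -0.71), with the pheromone receptor STE3 at -1.80 (adjusted p 0.158). Of 12 sporulation genes, 2 were higher and 1 lower at both temperatures (median 0.03).

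The Arabidopsis control spot lay between 1.37 and 2.42 on the 6 arrays of both strains at 12°C and between -2.02 and 0.54 on the 6 arrays at 28°C. The buffer spot lay between -3.32 and 2.03 over the 12 arrays.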
